A study of Rattus norvegicus with 12 samples.

Results

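Glycolytic enzyme transcripts were followed in whole rat lung after trauma and hemorrhagic shock. The set consisted of every probe set (a group of probes summarised to 1 value) whose platform gene symbol was Hk1, Hk2, Pfkl, Pfkp, Aldoa, Gapdh, Pgk1, Eno1, Pkm or Ldha, with array controls left out. This gave 14 of the 8740 probe sets tested, covering 8 of the 10 genes, among 4736 genes that probe sets with 1 symbol cover. Gapdh and Ldha lay only on 2 probe sets whose annotation lists further genes, M17701_s_at (Gapdh-ps118, Gapdhl10 and Gapdh) and M54926_at (Ldhal1 and Ldha). These are described by probe set and are not counted among the 14.

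Male Sprague-Dawley rats of 300 to 420 g were studied in 4 groups of 3 arrays. T/HS rats had a laparotomy and were bled to 30 mmHg for 90 min before the shed blood was returned, and these rats had lung injury. T/SS rats had the laparotomy and a sham period without bleeding, and no lung injury. In T/HS-LDL rats the mesenteric lymph duct was tied and divided before shock, and in T/SS-LDL rats before sham shock; neither had measurable lung injury. The lungs were removed 3 h from the end of the shock or sham period, which was 4.5 h from its start, and all 4 groups share the anaesthetic, cannulas and laparotomy.

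Glycolysis converts glucose to pyruvate in the cytosol and yields ATP without oxygen. Hexokinase traps glucose as its phosphate, phosphofructokinase commits it to the pathway, and aldolase splits the sugar. Glyceraldehyde-3-phosphate dehydrogenase, phosphoglycerate kinase, enolase and pyruvate kinase follow, and lactate dehydrogenase turns pyruvate into lactate while restoring NAD+. Several of these genes are textbook targets of hypoxia-inducible factor 1 (HIF-1), which binds the core motif RCGTG. Blood lactate rises in hemorrhagic shock.

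Each group held 2 arrays that were almost the same, their log2 differences having a robust SD below 0.1, although every array is labelled as a biological replicate. Such arrays were averaged into 1 sample: replicates 1 and 3 of T/HS, T/HS-LDL and T/SS-LDL, and replicates 2 and 3 of T/SS. Each group therefore has 2 samples, called here the averaged pair and the single array, and the 14 probe sets with both shared ones differed by at most 0.12 log2 units within a pair. Nothing says whether further samples share an animal, so errors measure the spread between these samples, which may be technical. The median intensity per array ran from 647 to 677 units. The labelled tissue was borne out by Sftpc, the surfactant protein of alveolar type II cells, at log2 levels of 14.87 to 14.99 in the 8 samples, the top of each array's scale, so that a change in it could not be read.

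For 10 of the 14 probe sets the levels of all 8 samples lay within 1 log2 unit. The highest levels of both Pfkp probe sets, of 1 probe set each of Hk1 and Hk2, and of Pkm came from single arrays of shocked lungs. The single T/HS array was the highest for 3 of the 14, against 10.9% of all probe sets. For 2 of the 14 it was the single T/HS-LDL array, against 9.71% of all. In T/HS lungs against T/SS lungs, 11 of the 14 probe sets were higher and 3 lower, with a median log2 fold change of 0.14 and a range of −0.05 to 0.82. The median over all 8740 probe sets was −0.007, and 48.4% of them were higher. As 5 of the 8 genes had 2 or more probe sets, counts over the 14 are not counts of separate genes. None of the 14 had an adjusted p under 0.05 with limma, and of all probe sets 0% did. At an unadjusted p under 0.05, 1 of the 14 was counted, an Hk1 probe set, against 8.8% of all probe sets. Groups without overlap were found for 5 probe sets that were higher in T/HS lungs, where 19.2% of all probe sets were, and for 1 that was lower, where 20.9% of all were. The 5 were Hk1 rc_AI012593_at, Hk2 D26393exon_s_at, Pgk1 M31788_at, Eno1 X02610_at and Pkm. Of these Pgk1 M31788_at was dim, its mean level being above that of only 2.4% of all probe sets. The 1 that was lower was the brighter Pgk1 M31788_g_at. The 95% interval of the change lay within 1 log2 unit either way for 10 of the 14, which is 2-fold, and not for the other 4, where it did for 90.7% of all probe sets.

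**Figure D1:**
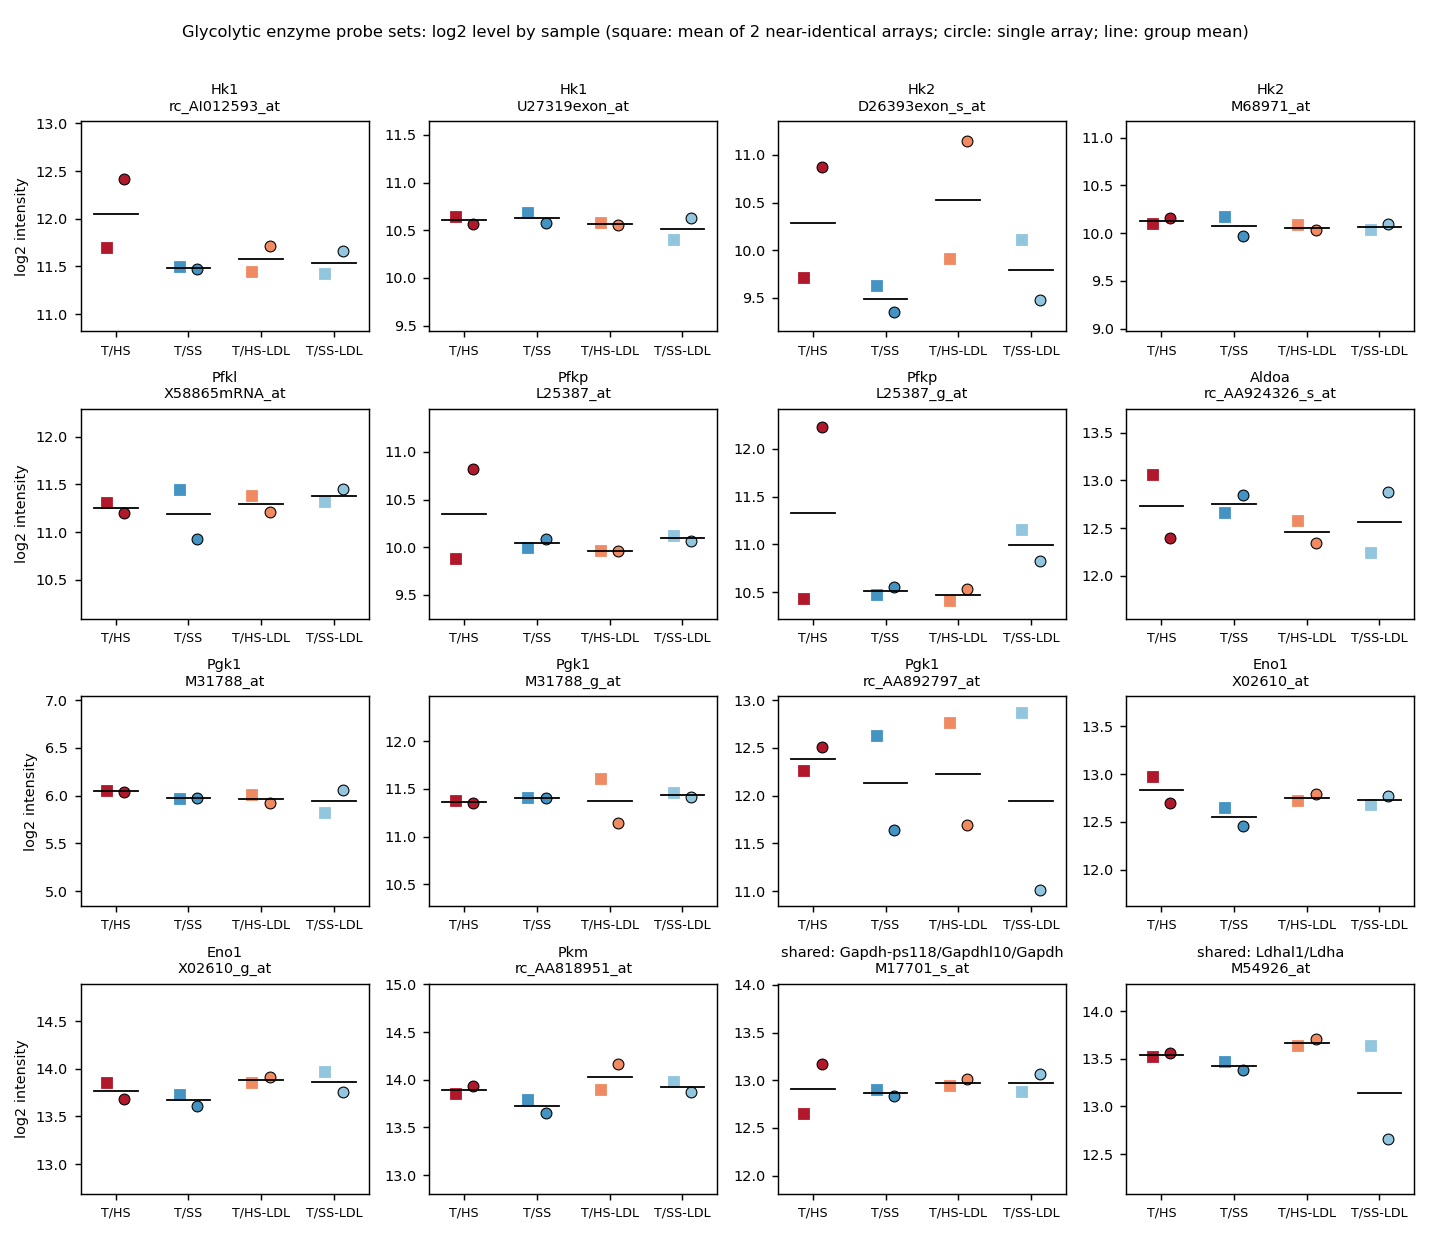
Log2 intensity (y axis, 2.2 log2 units in every panel) of the 14 glycolytic enzyme probe sets and the 2 shared ones in T/HS, T/SS, T/HS-LDL and T/SS-LDL lungs (x axis). Squares are averages of 2 near-identical arrays, circles single arrays and lines group means. The single T/HS array stands apart for Pfkp and Hk1 rc_AI012593_at, the single arrays of both shocked groups for Hk2 D26393exon_s_at, and Pgk1 rc_AA892797_at has the widest range (1.85).

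Promoter sequence is shown for 3 genes, Pfkp and Hk2 because single arrays of shocked lungs stood furthest apart there, and Ldha because it held the most copies of the HIF-1 core among the genes matched. Windows run from 250 bases before to 50 bases after the start site, from RefSeq (GRCr8). The letters searched were ACGTG and GCGTG on both strands, and capitals mark them; CACGTG, the E-box, overlaps ACGTG. The windows are Pfkp chr17:68639563-68639862 (plus strand), Hk2 chr4:116841226-116841525 (minus strand) and Ldha chr1:106507842-106508141 (plus strand).
Pfkp: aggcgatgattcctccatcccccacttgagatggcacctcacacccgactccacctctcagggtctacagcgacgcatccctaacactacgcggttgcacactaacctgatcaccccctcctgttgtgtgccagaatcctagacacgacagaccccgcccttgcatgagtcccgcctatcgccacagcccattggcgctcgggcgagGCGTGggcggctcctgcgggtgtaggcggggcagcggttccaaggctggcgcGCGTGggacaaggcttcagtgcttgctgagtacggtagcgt
Hk2: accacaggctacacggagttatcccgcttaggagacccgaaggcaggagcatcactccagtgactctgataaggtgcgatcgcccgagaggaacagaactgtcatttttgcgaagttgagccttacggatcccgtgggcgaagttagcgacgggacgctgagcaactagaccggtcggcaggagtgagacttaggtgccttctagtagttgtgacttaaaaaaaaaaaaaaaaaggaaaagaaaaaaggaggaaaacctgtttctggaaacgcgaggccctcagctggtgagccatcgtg
Ldha: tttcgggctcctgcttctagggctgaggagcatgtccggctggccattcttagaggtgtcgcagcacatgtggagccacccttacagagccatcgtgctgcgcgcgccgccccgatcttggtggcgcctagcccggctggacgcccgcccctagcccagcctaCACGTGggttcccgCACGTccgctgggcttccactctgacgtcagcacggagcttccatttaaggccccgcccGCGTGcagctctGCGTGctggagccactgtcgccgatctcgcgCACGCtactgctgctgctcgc
The Pfkp window held 2 copies of GCGTG and the Hk2 window held neither core. The Ldha window shows 5 stretches in capitals; CACGTG reads ACGTG on both strands and counts once for each, which gives 3 matches of each core and 6 in all. Of the 10 genes, 9 had a window, Pgk1 being the other one. A core lay in 8 of their 13 windows, which belong to 7 of the 9 genes. The count of genes has no like share below, as a gene with several windows has more room for a match. ACGTG lay in 5 of the 13 windows, GCGTG in 6 and CACGTG in 1. Among all 33469 promoters of the same length 41.6% held a core, 19.3% held ACGTG, 29.7% held GCGTG and 6.4% held CACGTG. A match in these letters is a description and not a binding site.

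Hexokinase performs the first step. Hk1, the constitutive form in most tissues, was read by 2 probe sets that did not move together (Pearson r = 0.08 over the 8 samples). Hk1 rc_AI012593_at had log2 levels of 11.69 in the averaged pair and 12.42 in the single array of T/HS lungs, against 11.49 and 11.47 in T/SS lungs. In T/HS-LDL lungs it had 11.44 and 11.72, against 11.42 and 11.66 in T/SS-LDL lungs. The single T/HS array was the highest of all 8, and T/HS and T/SS lungs did not overlap. The difference of T/HS and T/SS lungs was 0.57 log2 units (SE 0.24, 1.49-fold), with an adjusted p of 0.564 in limma. Without the single T/HS array it was 0.21, and without the averaged pair 0.94. Its unadjusted limma p of 0.0474 was the only one under 0.05 among the 14. The other Hk1 probe set, U27319exon_at, spanned only 0.28 log2 units over the 8 samples, with 10.64 and 10.57 in T/HS lungs against 10.68 and 10.58 in T/SS lungs. These overlapped, and the difference was −0.03 (SE 0.11).

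The array also carries hexokinase control probe sets along the transcript, used to watch RNA quality. The 3′ set had log2 levels of 9.05 in the averaged pair and 9.55 in the single array of T/HS lungs, against 9.12 and 8.94 in T/SS lungs. The middle set had 10.11 and 10.29 in T/HS lungs, against 10.08 and 9.99 in T/SS lungs, and the 5′ set had 7.98 and 8.06 in T/HS lungs, against 8.05 and 7.94 in T/SS lungs. In the 4 samples with a ligated duct the 3′ set ran from 8.51 to 9.08, the middle set from 9.80 to 10.00 and the 5′ set from 7.61 to 7.81. The single T/HS array was the highest of all 8 at each place, by the widest margin at the 3′ end. The 3′ minus 5′ difference was 1.49 in that array, the highest of the 12, where the lowest was 0.86. For the Gapdh control sets it was 1.21 in that array, and the 12 arrays ran from 0.97 to 1.54. For the beta-actin control sets, which lay near the top of the scale, it was 0.13, and the arrays ran from 0.07 to 0.27. The part of RNA quality in the rc_AI012593_at level was not tested.

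Hk2, the inducible hexokinase of muscle and fat, gave the widest spread of the hexokinases. Hk2 D26393exon_s_at had log2 levels of 9.71 in the averaged pair and 10.87 in the single array of T/HS lungs, against 9.63 and 9.35 in T/SS lungs. It had 9.91 and 11.15 in T/HS-LDL lungs, against 10.11 and 9.48 in T/SS-LDL lungs. The single arrays of both shocked groups were the 2 highest samples, and both averaged pairs of shocked lungs lay below the averaged pair of T/SS-LDL lungs. T/HS and T/SS lungs did not overlap, while T/HS-LDL and T/SS-LDL lungs did. The shock difference was 0.80 (SE 0.50) with the duct open, 0.74 (SE 0.50) with it ligated and 0.77 (SE 0.35) over both, the last with an adjusted p of 0.601 in limma. For the open duct it was 0.22 without the single T/HS array and 1.38 without the averaged pair, and for the ligated duct 0.12 without the single T/HS-LDL array and 1.35 without the averaged T/HS-LDL pair. The second Hk2 probe set, M68971_at, spanned 0.20 log2 units in all 8 samples, which was wider than only 6.2% of all probe sets. It had 10.10 and 10.16 in T/HS lungs, against 10.17 and 9.97 in T/SS lungs, and did not share the pattern of the first (r = 0.11 over the 8 samples).

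Phosphofructokinase is the main control point of the pathway. Pfkl, the liver-type subunit, had log2 levels of 11.30 in the averaged pair and 11.20 in the single array of T/HS lungs, against 11.44 and 10.93 in T/SS lungs. It had 11.38 and 11.21 in T/HS-LDL lungs, against 11.31 and 11.45 in T/SS-LDL lungs. The groups overlapped in both comparisons, with differences of 0.07 (SE 0.17) and −0.09 (SE 0.17).

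Pfkp, the platelet-type subunit, was the member in which 1 array stood furthest apart. Pfkp L25387_g_at had log2 levels of 10.43 in the averaged pair and 12.23 in the single array of T/HS lungs, against 10.47 and 10.55 in T/SS lungs. It had 10.41 and 10.53 in T/HS-LDL lungs, against 11.15 and 10.83 in T/SS-LDL lungs. The single T/HS array was more than 1 log2 unit above every other sample, while the T/HS averaged pair lay below both T/SS samples. The second Pfkp probe set, L25387_at, had 9.88 and 10.82 in T/HS lungs, against 9.99 and 10.09 in T/SS lungs. It had 9.96 in both T/HS-LDL samples, against 10.12 and 10.07 in T/SS-LDL lungs. The same array was highest again, and the probe sets followed each other with r = 0.97 over the 8 samples and 0.77 over the other 7.

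The difference of T/HS and T/SS lungs was 0.82 (SE 0.50, adjusted p = 0.671) for Pfkp L25387_g_at and 0.31 (SE 0.27, adjusted p = 0.771) for L25387_at in limma. With the single T/HS array left out both were below 0, at −0.08 and −0.16. With the averaged pair left out, so that the single array alone stood for T/HS, they were 1.71 (adjusted p = 0.00916 in limma) and 0.78 (adjusted p = 0.033). In that fit, in which the lone sample is assumed to vary like the other groups, 2 of the 14 were called against 1.59% of all probe sets. The same fit gave 1.76 (adjusted p = 0.0128 in limma) and 0.86 (adjusted p = 0.0378) against T/HS-LDL lungs, where 0.755% of all were called. For the difference between the shock effects with open and ligated duct it gave 2.23 for L25387_g_at (adjusted p = 0.0236 in limma), where 0.309% of all were called.

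The array that carried these levels also stood apart in genes induced by interferon. The summed intensity of 10 such genes was 23438 in the averaged pair and 164099 in the single array of T/HS lungs, against 16371 and 18646 in T/SS lungs. It was 18277 to 24819 in the 4 samples with a ligated duct. Mx1, an interferon-induced antiviral GTPase named after its values were seen, had log2 levels of 9.79 and 14.44 in T/HS lungs, against 9.36 and 9.21 in T/SS lungs. For Hk2 D26393exon_s_at the highest level of the 8 samples, 11.15, was that of the single T/HS-LDL array, whose interferon sum was 24819. The part of the interferon-induced rise in the Pfkp, Hk1 and Hk2 levels was not tested.

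Aldoa, the muscle-type aldolase that is also found in most other tissues, had log2 levels of 13.06 in the averaged pair and 12.40 in the single array of T/HS lungs, against 12.66 and 12.85 in T/SS lungs. It had 12.58 and 12.34 in T/HS-LDL lungs, against 12.24 and 12.88 in T/SS-LDL lungs. The groups overlapped in both comparisons, with differences of −0.02 (SE 0.28) and −0.10 (SE 0.28), and 1 T/HS sample was the highest of all 8 while the other was among the lowest.

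The probe set M17701_s_at, shared by Gapdh and further Gapdh-like entries, had log2 levels of 12.65 and 13.17 in T/HS lungs, against 12.90 and 12.83 in T/SS lungs. These overlapped, with a difference of 0.05 (SE 0.17). The Gapdh control probe sets of the array read the transcript at 3 places. At the 3′ end they had log2 levels of 14.01 and 14.31 in T/HS lungs, against 14.10 and 13.96 in T/SS lungs, and at the 5′ end 13.03 and 13.09 in T/HS lungs, against 12.88 and 12.89 in T/SS lungs. The middle set had 13.89 and 14.02 in T/HS lungs, against 13.79 and 13.71 in T/SS lungs. T/HS lungs were higher without overlap at the middle set, by a mean of 0.21, and at the 5′ end, by 0.17, and the 3′ levels overlapped. In the T/SS-LDL averaged pair the 5′ level was 12.65 and in the single T/SS-LDL array 13.17, while both had about the same 3′ level, 14.18 and 14.19. The 5′ level thus differed more within T/SS-LDL lungs than between the means of T/HS and T/SS lungs.

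**Figure D2:**
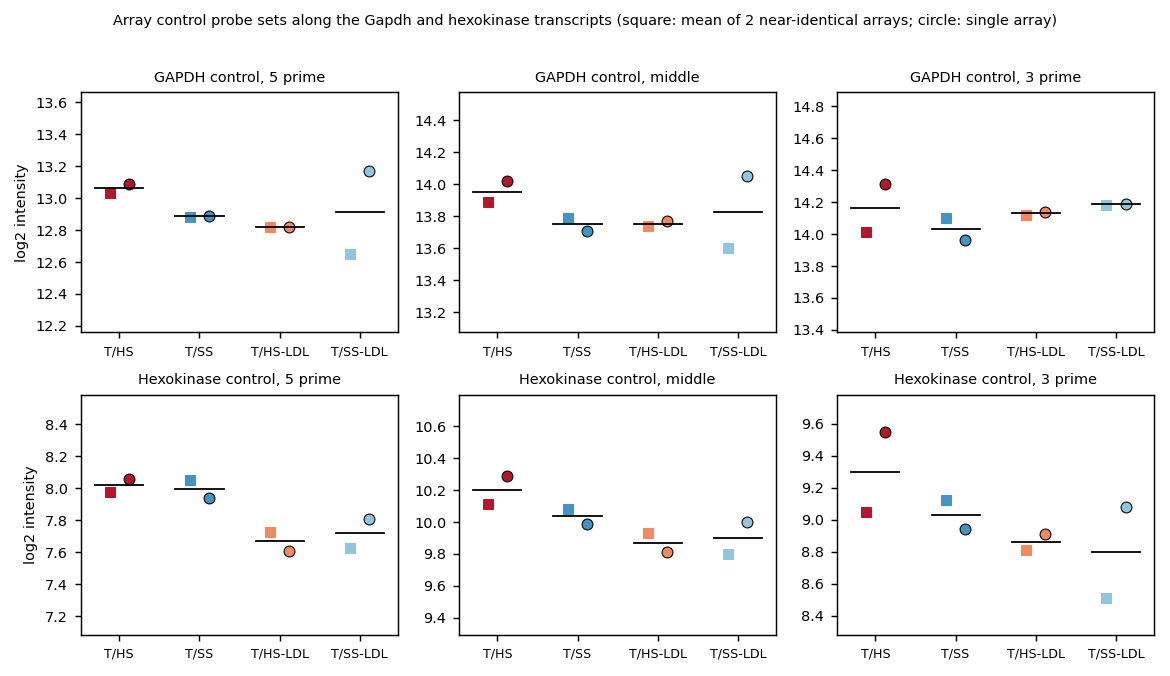
Log2 intensity (y axis, 1.5 log2 units in every panel) of the array's Gapdh and hexokinase control probe sets at the 5′ end, middle and 3′ end of the transcript, in T/HS, T/SS, T/HS-LDL and T/SS-LDL lungs (x axis). Squares are averages of 2 near-identical arrays, circles single arrays and lines group means. The single T/HS array is highest at the hexokinase 3′ set (9.55), and the T/SS-LDL samples part at the Gapdh 5′ set (12.65 and 13.17).

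Pgk1, phosphoglycerate kinase, makes the first ATP of the pathway and was read by 3 probe sets. Pgk1 rc_AA892797_at had log2 levels of 12.26 in the averaged pair and 12.51 in the single array of T/HS lungs, against 12.63 and 11.64 in T/SS lungs. It had 12.76 and 11.69 in T/HS-LDL lungs, against 12.87 and 11.01 in T/SS-LDL lungs. In the 3 other groups the averaged pair lay about 1 log2 unit or more above the single array, and its range of 1.85 was wider than that of 97.9% of all probe sets. The difference of T/HS and T/SS lungs was 0.25 (SE 0.65). Pgk1 M31788_g_at had 11.37 and 11.35 in T/HS lungs, against 11.41 and 11.40 in T/SS lungs, so that it was lower in T/HS lungs without overlap, by −0.05 (SE 0.15). Pgk1 M31788_at was dim, at 6.05 and 6.04 in T/HS lungs against 5.96 and 5.98 in T/SS lungs, and its intensity stayed between 55.7 and 66.6 units in the 12 arrays. The 3 sets of Pgk1 had pairwise r of 0.11, −0.37 and 0.41 over the 8 samples.

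Eno1, the enolase of most tissues, was the member in which both probe sets were higher in T/HS lungs with a small spread. Eno1 X02610_at had log2 levels of 12.97 in the averaged pair and 12.70 in the single array of T/HS lungs, against 12.65 and 12.46 in T/SS lungs. It had 12.72 and 12.79 in T/HS-LDL lungs, against 12.68 and 12.77 in T/SS-LDL lungs. T/HS lungs were higher than T/SS lungs without overlap, by 0.28 (SE 0.13, adjusted p = 0.58 in limma, 1.22-fold), and the groups with a ligated duct overlapped, with a difference of 0.03 (SE 0.13). Leaving out 1 sample moved the 0.28 to between 0.15, without the averaged T/HS pair, and 0.42, without the single T/HS array. Eno1 X02610_g_at had 13.85 and 13.68 in T/HS lungs, against 13.73 and 13.61 in T/SS lungs, which overlapped, with a difference of 0.10 (SE 0.12). For X02610_at the difference between both shock effects was 0.25 (SE 0.18), and its adjusted p in limma rounded to 1.

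Pkm, the pyruvate kinase of lung and most other tissues, was read by 1 probe set, rc_AA818951_at. It had log2 levels of 13.85 in the averaged pair and 13.93 in the single array of T/HS lungs, against 13.79 and 13.65 in T/SS lungs. It had 13.89 and 14.16 in T/HS-LDL lungs, against 13.98 and 13.87 in T/SS-LDL lungs. T/HS and T/SS lungs did not overlap, with a difference of 0.17 (SE 0.12, adjusted p = 0.731 in limma, 1.13-fold), which was 0.10 without the single T/SS array. T/HS-LDL and T/SS-LDL lungs overlapped, with a difference of 0.10 (SE 0.12).

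The probe set M54926_at, shared by Ldha and Ldhal1, had log2 levels of 13.52 in the averaged pair and 13.56 in the single array of T/HS lungs, against 13.47 and 13.38 in T/SS lungs. It had 13.63 and 13.71 in T/HS-LDL lungs, against 13.63 and 12.66 in T/SS-LDL lungs. T/HS lungs were above T/SS lungs without overlap by 0.11 (SE 0.28) and below T/HS-LDL lungs without overlap by −0.13 (SE 0.28). The 0.52 (SE 0.28) difference of T/HS-LDL and T/SS-LDL lungs rested on the 1 low T/SS-LDL array, which was also the lowest of all 8 at Pgk1 rc_AA892797_at.

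**Figure D3:**
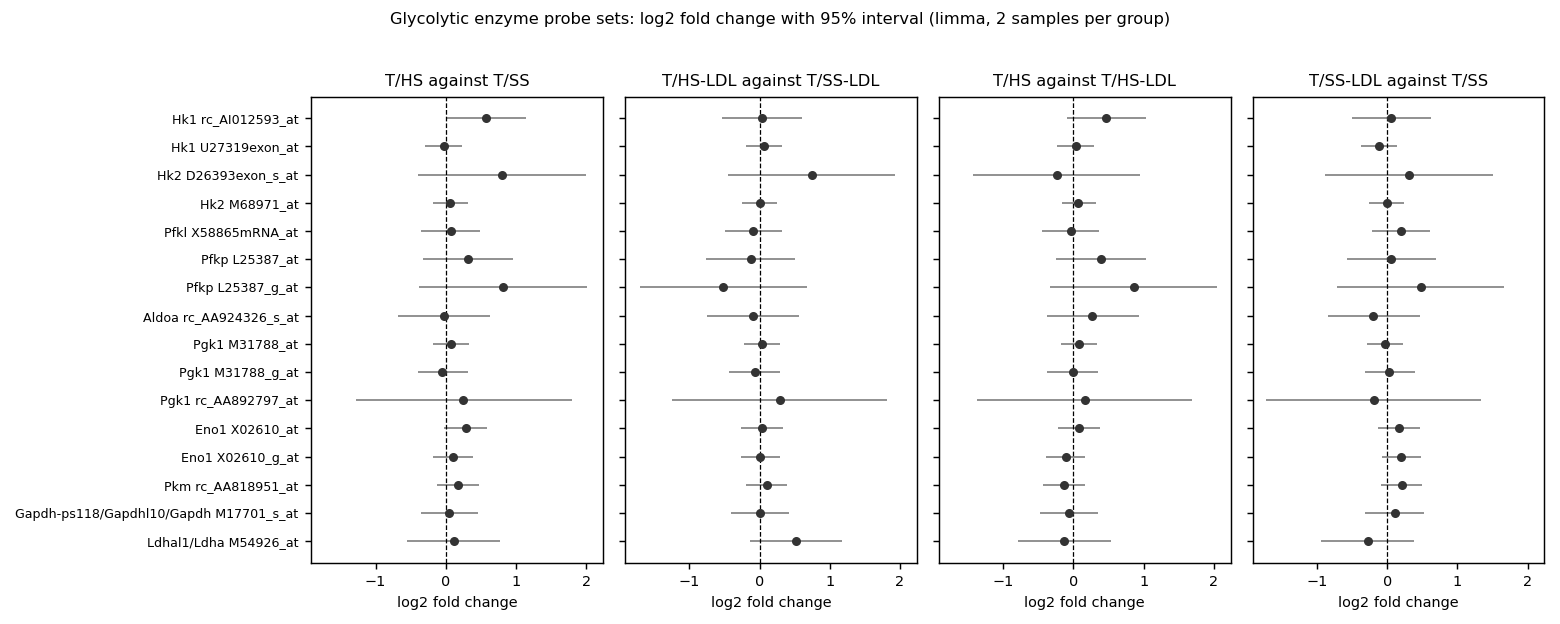
Log2 fold change (x axis) of the 14 glycolytic enzyme probe sets and the 2 shared ones (y axis) in 4 comparisons, as points with the 95% interval from limma and 2 samples per group. Among the 14, the interval excludes 0 for Hk1 rc_AI012593_at in T/HS against T/SS lungs only, and Hk2 D26393exon_s_at, Pfkp L25387_g_at and Pgk1 rc_AA892797_at have the widest intervals.

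In T/HS lungs against T/HS-LDL lungs, the comparison of shocked lungs with and without injury, 9 of the 14 were higher and 5 lower. Among all probe sets 54.8% were higher. The median of the 14 was 0.08. The median was 0.02 without the single T/HS array, 0.03 without the averaged T/HS pair and 0.04 without the single T/HS-LDL array. Adjusted p-values under 0.05 in limma were found for 0 of the 14 and for 0% of all probe sets, and unadjusted ones for 0 of the 14 against 6.37% of all. Hk2 M68971_at and Pgk1 M31788_at were higher without overlap, 2 of the 14 against 18.4% of all probe sets, by 0.07 (SE 0.10) and 0.08 (SE 0.11). The other Hk2 probe set, D26393exon_s_at, differed by −0.24 (SE 0.50) and overlapped. Pgk1 M31788_at was dim, and the other Pgk1 probe sets overlapped, at −0.01 (SE 0.15) and 0.16 (SE 0.65). None of the 14 was lower without overlap, against 15.7% of all. The highest difference was that of Pfkp L25387_g_at, 0.86 (SE 0.50), which came from the single T/HS array.

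In T/HS-LDL lungs against T/SS-LDL lungs, shock without lung injury, 8 of the 14 were higher and 6 lower, with a median of 0.02. Among all probe sets 54.1% were higher. In limma 0 of the 14 and 0% of all probe sets had an adjusted p under 0.05, and an unadjusted p under 0.05 was found for 0 of the 14 against 3.79% of all. None was higher without overlap, against 16.8% of all probe sets. Both Pfkp probe sets were lower without overlap, 2 of the 14 against 12.4% of all, by −0.52 (SE 0.50) for L25387_g_at and −0.13 (SE 0.27) for L25387_at. The T/SS-LDL samples were the highest of L25387_g_at after the single T/HS array.

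Ligation alone was compared in sham-shocked lungs. In T/SS-LDL lungs against T/SS lungs 9 of the 14 were higher, against 44.7% of all probe sets, and 5 lower. Their median was 0.06. In limma 0 of the 14 and 0% of all had an adjusted p under 0.05, and an unadjusted p under 0.05 was found for 0 of the 14 against 4.23% of all. Groups did not overlap for 5 of the 14 that were higher, against 16.2% of all probe sets, and for none that was lower, against 24.5% of all. The 5 were Pfkp L25387_g_at at 0.48 (SE 0.50), Pkm at 0.21 (SE 0.12), Eno1 X02610_g_at at 0.20 (SE 0.12), Eno1 X02610_at at 0.17 (SE 0.13) and Pgk1 M31788_g_at at 0.03 (SE 0.15). Eno1 X02610_at and Pkm thus lay above T/SS lungs without overlap after ligation alone as well as after shock. Both comparisons use the same 2 T/SS samples, and the single T/SS array was the lowest of the 8 samples for 6 of the 14 probe sets, against 10.9% of all probe sets.

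Over both duct states, shocked lungs against sham-shocked lungs, 11 of the 14 were higher, against 52.1% of all probe sets, and 3 lower. Their median was 0.07. In limma 0 of the 14 and 0% of all had an adjusted p under 0.05, and an unadjusted p under 0.05 was found for 0 of the 14 against 9.04% of all. With 4 samples a side, none of the 14 was higher without overlap, against 2.49% of all probe sets, and none lower, against 2.15%. The shock effect with open duct minus that with ligated duct was above 0 for 12 of the 14 and below for 2, with a median of 0.08. It was above 0 for 46.6% of all probe sets. In limma 0 of the 14 and 0% of all had an adjusted p under 0.05 for this difference, and an unadjusted p under 0.05 was found for 0 of the 14 against 2.99% of all. Pfkp L25387_g_at alone exceeded 2-fold in it, at 1.33 (SE 0.71, adjusted p rounding to 1 in limma).

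How the near-identical arrays entered moved the calls over all probe sets but made no call among the enzymes. Where all 12 arrays entered as separate samples, 7.2% of all probe sets had an adjusted p under 0.05 in limma for T/HS against T/SS lungs, and 0 of the 14 did.

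Over the 8 samples, the range of a probe set's levels was above 1 log2 unit for 4 of the 14, against 10.6% of all probe sets, and above 0.5 for 9 of the 14, against 39.7%. The median range was 0.51, against 0.43 over all probe sets. Hk1 rc_AI012593_at, Hk2 D26393exon_s_at, Pfkp L25387_g_at and Pgk1 rc_AA892797_at were these 4. Members of different genes did not share a pattern: over their 84 pairs the median r across the 8 samples was 0.08, from −0.73 to 0.85. The highest was that of Hk1 rc_AI012593_at and Pfkp L25387_at, which share the high T/HS array. All these points share the arrays and the 4 groups. The 5 genes whose pattern was most like the mean of the 8 member genes over the 8 samples were Cxcl14 (r = 0.964), Vcp (r = 0.954), Serpina3n (r = 0.908), Clec9a (r = 0.902) and Igfbp3 (r = 0.901). These were picked as the highest among all other genes over only 8 samples, so their r values are high by selection. The mean itself is not a pattern that the members share.

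Other genes of glucose use were read at 1 probe set per gene, the brightest. On the same footing, the 8 member genes had a median of 0.14 in T/HS against T/SS lungs, with 7 higher and 1 lower. None of the genes in the lists that follow had an adjusted p under 0.05 in limma in any comparison. Of other glycolytic enzymes 8 of 16 were measured, 4 higher and 4 lower in T/HS than in T/SS lungs, with a median of 0.01. Pgam1, phosphoglycerate mutase, differed by 0.05 (SE 0.11) and Ldhb, the heart-type lactate dehydrogenase, by 0.20 (SE 0.11). With the duct ligated the differences of T/HS-LDL and T/SS-LDL lungs were 0.02 (SE 0.11) and −0.28 (SE 0.11).

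Of the genes of glucose and lactate transport and of the control of flux 24 of 28 were measured, 11 higher and 13 lower in T/HS than in T/SS lungs, with a median of −0.03. Pdha1, a subunit of pyruvate dehydrogenase, had log2 levels of 12.59 and 13.02 in T/HS lungs, against 12.88 and 12.60 in T/SS lungs. Mpc1, the mitochondrial pyruvate carrier, had 12.14 and 12.89 in T/HS lungs, against 13.13 and 12.96 in T/SS lungs. Mpc1 was lower in T/HS lungs without overlap, by −0.53 (SE 0.25, adjusted p = 0.586 in limma), and Pdha1 overlapped. At the other end of this list, and named after their values were seen, Pfkfb3, which makes the activator of phosphofructokinase, had log2 levels of 9.60 and 9.78 in T/HS lungs, against 9.16 and 9.20 in T/SS lungs. Slc16a3, a lactate exporter, had 10.77 and 11.01 in T/HS lungs, against 10.55 and 10.21 in T/SS lungs. Both were higher in T/HS lungs without overlap, by 0.51 (SE 0.16, adjusted p = 0.482 in limma) and 0.51 (SE 0.18, adjusted p = 0.499 in limma). With the duct ligated the shock differences were 0.08 (SE 0.16) for Pfkfb3 and 0.02 (SE 0.18) for Slc16a3. Ligation alone gave Slc16a3 a higher level without overlap too, at 10.90 and 10.74 in T/SS-LDL lungs, by 0.44 (SE 0.18) over T/SS lungs, and T/HS lungs differed from T/HS-LDL lungs by 0.05 (SE 0.18). Pfkfb3 differed by −0.01 (SE 0.16) between T/SS-LDL and T/SS lungs. T/HS-LDL lungs had 9.36 and 9.14 for Pfkfb3, and T/HS lungs were higher without overlap, by 0.44 (SE 0.16, adjusted p = 0.775 in limma). For Mpc1 T/HS-LDL lungs had 13.29 and 13.16, and T/HS lungs were lower without overlap, by −0.71 (SE 0.25, adjusted p = 0.775 in limma).

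**Figure D4:**
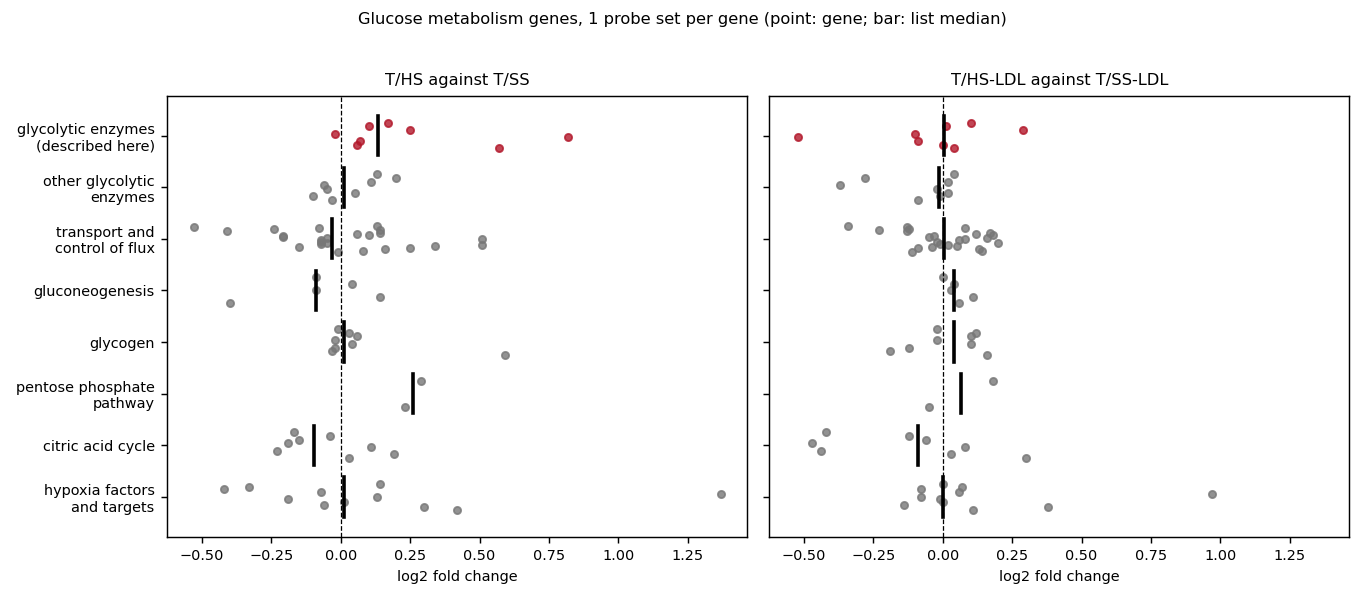
Log2 fold change (x axis) of genes in 8 lists of glucose metabolism (y axis), 1 probe set per gene, in T/HS against T/SS lungs (left) and T/HS-LDL against T/SS-LDL lungs (right). Points are genes and bars list medians; the list medians on the left run from −0.10 for the citric acid cycle to 0.26 for the 2 pentose phosphate genes, and the point at 1.37 is Hmox1.

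Neighbouring pathways were read in the same way. In T/HS against T/SS lungs the median was −0.09 over 5 genes of gluconeogenesis, 0.01 over 8 of glycogen, 0.26 over 2 of the pentose phosphate pathway and −0.10 over 8 of the citric acid cycle. Slc37a4, the glucose-6-phosphate carrier, differed by −0.09 (SE 0.11) and Fbp2, a fructose bisphosphatase, by 0.04 (SE 0.10). Pygb, a glycogen phosphorylase, and Pgm1, phosphoglucomutase, differed by −0.02 (SE 0.14) and −0.02 (SE 0.12). The widest differences of the glycogen and gluconeogenesis lists, named after their values were seen, were those of Pygl, the liver-type glycogen phosphorylase, and Pck1, a phosphoenolpyruvate carboxykinase. Pygl had log2 levels of 9.98 and 10.06 in T/HS lungs, against 9.38 and 9.48 in T/SS lungs, and was higher without overlap by 0.59 (SE 0.12, adjusted p = 0.373 in limma). After ligation alone, T/SS-LDL against T/SS lungs, it differed by 0.41 (SE 0.12). Pck1 had 8.30 and 8.26 in T/HS lungs, against 8.74 and 8.63 in T/SS lungs, and was lower without overlap by −0.40 (SE 0.14, adjusted p = 0.5 in limma). Taldo1, transaldolase, differed by 0.29 (SE 0.13) and Tkt, transketolase, by 0.23 (SE 0.27). The malate dehydrogenases Mdh2 and Mdh1 differed by −0.17 (SE 0.14) and −0.04 (SE 0.15).

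Hypoxia factors and targets other than these enzymes were measured for 11 of 22 genes, 6 higher and 5 lower in T/HS than in T/SS lungs, with a median of 0.01. Hmox1, heme oxygenase 1, had log2 levels of 11.36 and 12.98 in T/HS lungs, against 10.75 and 10.86 in T/SS lungs, and 12.02 and 11.73 in T/HS-LDL lungs, against 11.11 and 10.70 in T/SS-LDL lungs. It was higher without overlap in both, by 1.37 (SE 0.47, adjusted p = 0.492 in limma) and 0.97 (SE 0.47, adjusted p = 0.998 in limma). Vegfa, the vascular endothelial growth factor, differed by −0.19 (SE 0.19) between T/HS and T/SS lungs and overlapped.

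The lungs were bulk tissue, so a change in the number of cells of a type and a change of RNA per cell cannot be told apart. Of 21 neutrophil markers 10 were measured, and all 10 were higher in T/HS than in T/SS lungs and in T/HS-LDL than in T/SS-LDL lungs, with medians of 0.79 and 0.66. Their summed intensity was 36887 and 71946 in T/HS lungs, against 27082 and 21573 in T/SS lungs, and 62702 and 71986 in T/HS-LDL lungs, against 44367 and 33663 in T/SS-LDL lungs. The sum of 13 heart muscle markers was 8793 in the single T/HS-LDL array and 12242 in the T/SS averaged pair, against 22376 to 29195 in the other 6 samples. Markers of red blood cells, which live on glycolysis alone, were partly at the top of the scale: Hbb and Hbb-b1 had 14.87 to 14.99 in all 8 samples and make up most of the list's sum of 70526 to 75602, so the sum cannot show a change. Below that ceiling, Alas2 had log2 levels of 13.01 and 12.60 in T/HS lungs, against 13.15 and 12.91 in T/SS lungs. Slc4a1 had 10.93 and 10.75 in T/HS lungs, against 10.76 and 10.56 in T/SS lungs. Both overlapped. The median of the 5 red cell markers was −0.03. RMA values hold no 0, so no marker was at 0. The part of these markers in the enzyme levels was not tested.

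Medians of the other marker lists in T/HS against T/SS lungs were 0.15 for 5 genes of monocytes and macrophages, −0.22 for 8 of smooth muscle, 0.01 for 5 of alveolar type II cells, of which Sftpd (0.22) alone lay below the top of the scale in most samples, and −0.38 for 4 of alveolar type I cells. They were −0.17 for 6 of airway club and ciliated cells, −0.02 for 10 of endothelium, 0.10 for 10 of T and NK cells and 1.81 for 10 interferon-induced genes, the last resting on the single T/HS array. Lyz2 of the monocyte list and Ager of the alveolar type I list lay at the top of the scale in most samples. A change in them could not be read. Differences in the monocyte list ran from −0.37 for Aif1 to 1.25 for Cd14.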

How the data were processed

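The 12 arrays were 1-colour Affymetrix rat arrays. The authors deposited values made with RMA, per the submitters' processing notes, whose version is not given in the sources used here; they are linear intensity values, and log2 of each deposited value was used. The table has 8799 probe sets; 59 are array controls and were not tested. Symbols came from the platform annotation (7006 with 1 symbol, 308 with several, 1426 with none). Near-identical arrays were averaged, and 1 model of 4 groups was fitted to the 8 samples in R 4.3.3 by lmFit and eBayes of limma 3.58.1 (4 residual and 2.85 prior degrees of freedom), checked on simulated data. Tests were two-sided, with Benjamini-Hochberg adjustment over 8740 probe sets and a threshold of 0.05. For a single probe set an exact permutation test of 2 against 2 samples cannot go below 0.333. The number of arrays limits the precision. Members and gene lists were chosen with earlier results of these data known. Beside all members, the 2 genes with the highest mean level of each metabolic list were named, none having passed the threshold, and the 5 genes most like the members' mean. Outside this rule, Pfkfb3, Slc16a3, Pygl, Pck1 and Mx1 were named after their values were seen. Alternatives were 12 separate arrays, with or without the replicate number as a block, the pair as a random block, quantile and median scaling, an offset of 50, leaving out the dimmest 25% of probe sets and leaving out each sample. Same-numbered arrays did not deviate together (r −0.17 to 0.19 over 18 pairs), so the numbers were not taken to pair samples.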

Additional observations from a re-analysis of the deposited data

How the results depend on the processing

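No probe set of the glycolytic enzymes passed the threshold under any alternative that kept the T/HS averaged pair. Without that pair the T/HS group is the single array alone, so for the enzymes only the size of the differences is given for that fit. Over 96 results on single probe sets (16 probe sets in 6 comparisons), 1434 values under the alternatives held 131 uncalled ones whose sign changed. The number of probe sets called among all 8740, which was 0 in each comparison, depended on how the near-identical arrays entered. With 12 separate arrays 629 were called for T/HS against T/SS, 372 for T/HS against T/HS-LDL, 127 in T/HS-LDL against T/SS-LDL, 141 for T/SS-LDL against T/SS, 733 for shock over both duct states and 1 for the interaction, and 0 of the 14 enzymes' probe sets were among them. With the replicate number as a block these were 456, 130, 47, 21, 570 and 1; the numbers are only shared labels. With the near-identical pair as a random block 25 were called for T/HS against T/SS and 58 for shock over both duct states. Leaving out 1 sample at a time gave 0 to 139, 0 to 66, 0 to 2, 0 to 2, 0 to 108 and 0 to 27 in the same order of comparisons; the 139, 66, 108 and 27 came without the T/HS averaged pair, against 5, 4, 10 and 1 without the single T/HS array. The enzymes' median for T/HS against T/SS, 0.14, was 0.08 without the single T/SS array and 0.25 without the T/SS averaged pair. Leaving out 1 sample moved it between 0.04 and 0.10 for shock over both duct states, −0.05 and 0.04 in T/HS-LDL against T/SS-LDL, 0.04 and 0.18 in T/SS-LDL against T/SS, and 0.02 and 0.21 for the interaction. Quantile scaling, median scaling, the offset and leaving out the dimmest probe sets left every count of calls at 0, and no scaling moved the median of all probe sets by over 0.1. With 2 samples a group, small differences could not be told from the spread between samples.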
